A study of Mus musculus with 9 samples.

Results

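Car8, Calb1 and Itpr1 are 3 genes of calcium handling in Purkinje cells. They were chosen by name, with earlier results of these data known. Their values are the rows with these symbols in the deposited table of raw counts, 3 of the 56953 genes that the table lists. All 3 passed the count filter and were among the 10842 genes tested. The libraries came from cerebellar tissue of female mice at 1.5 months of age, which was cut out by laser microdissection to enrich Purkinje cell bodies together with the tissue next to them. The 3 genotypes were WT (no mutant allele), KI/+ (1 copy of Kcnd3 F227del) and KI/KI (2 copies), with 3 biological replicates each, and no mouse was treated. F227del is an in-frame knock-in deletion of a phenylalanine codon in Kcnd3, the gene of the A-type potassium channel Kv4.3, made by homologous recombination and carried by every cell of the animal on a C57BL/6J background. The study asked how the mutation changes transcripts in this tissue, and the values below describe the 3 calcium genes by genotype.

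Purkinje cells carry the only output of the cerebellar cortex, and calcium shapes both their firing and the plasticity of their synapses. Glutamate acting on the metabotropic receptor mGluR1 leads through Gq proteins and phospholipase C to inositol trisphosphate, which opens the channel encoded by Itpr1 in the membrane of the endoplasmic reticulum (ER) and releases stored calcium. Car8 encodes a carbonic anhydrase-related protein without enzyme activity that binds this channel and lowers its affinity for inositol trisphosphate, and Calb1 encodes calbindin-D28k, a cytosolic buffer that binds the calcium once it is free. Mutations of ITPR1 and of CA8 are known causes of inherited ataxia in people, and calbindin is the usual marker for counting Purkinje cells in sections.

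Total counts ran from 1915339 to 4032357 per library, which is a shallow depth for a whole transcriptome but gave each of the 3 genes at least 6019 counts in every library. CPM below are a gene's counts per 1000000 counts of its library, scaled by edgeR's trimmed mean of M-values (TMM), and a difference is a log2 fold change fitted with edgeR to all 9 libraries. A gene was called a differentially expressed gene (DEG) at a fold-change over 1.3 with a false discovery rate (FDR, the Benjamini-Hochberg adjusted p of edgeR) under 0.2. Kcnd3 itself had 5 to 21 counts per library and a difference of -0.45 on the log2 scale between KI/KI and WT (95% interval -1.36 to 0.46, edgeR FDR = 0.788). An in-frame deletion need not alter the number of transcripts, so these counts do not check the genotype labels.

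The row labels of the table need a caution that touches the level of Kcnd3 above and every level below. Of the 52029 identifiers that occur in GENCODE vM21, an annotation of mouse assembly GRCm38, 51992 carry a later version number than in vM21, whereas the labels name GRCm38 and mm10. Several defining Purkinje transcripts were at or near 0 under their own names: Pcp2 had 0 to 4 counts per library, Pvalb 1 to 5, Pcp4 and Rgs8 0 to 1, and Slc1a6, Ppp1r17 and Gad2 had none in any library. Of the Purkinje markers other than Car8, Calb1 and Itpr1, Cacna1a had the largest level, up to 63.2 CPM of the library total, and most did not pass the filter. The label of Purkinje-enriched tissue could therefore be checked mainly with the 3 genes described here.

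Gaps of this kind were not spread evenly along the chromosomes. Car8 and Calb1 lie close together near the start of chromosome 4, where 251 of 334 protein-coding genes before 60 megabases (75.1%) averaged at least 10 counts per library, against 363 of 984 (36.9%) from there on. Itpr1 lies on the long remainder of chromosome 6, where 334 of 923 protein-coding genes from 40 megabases on (36.2%) did so, against 123 of 186 (66.1%) before that position. Both boundaries were set after the values were seen. Of the 20 nearest protein-coding genes, 17 around Car8, 16 around Calb1 and 7 around Itpr1 averaged at least 10 counts, with median counts of 522, 344 and 4.28. Over all 21829 protein-coding genes listed the share was 35.3%. Whether a row holds all reads of the gene it names, or also reads of other loci, was not tested, and for Itpr1 this concerns every value given below. The same limit applies to the ranks, the marker sums, the pathway lists and the rows that most resembled each member.

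Car8 (ENSMUSG00000041261) spans chr4:8143362-8239041 on the minus strand of GRCm38 in GENCODE vM21, with 3853 bases of exons. Its 232481 counts over the 9 libraries made it the row with the second-largest total in the table, after Filip1l (445869 counts) and before the predicted gene Gm36635 (196356 counts). Calb1 (ENSMUSG00000028222) spans chr4:15881264-15908064 on the plus strand, 7.64 megabases from Car8, with 4846 exonic bases. It had 149596 counts and rank 6, between Dsg3 (156814 counts), which encodes a desmosomal cadherin of epithelia, and Timeless (122924 counts). Itpr1 (ENSMUSG00000030102) spans chr6:108213096-108551109 on the plus strand, with 18319 exonic bases, and its 69619 counts gave it rank 23, between the cannabinoid receptor gene Cnr1 (69771 counts) and Ywhaz (69518 counts).

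Together the 3 genes took from 1.53% to 1.98% of all counts in a library. Car8 alone held 0.770% (WT 2) to 1.02% (KI/KI 3) of a library, Calb1 0.496% (WT 3) to 0.656% (KI/KI 3), and Itpr1 0.245% (KI/+ 2) to 0.350% (KI/+ 3). The exact 95% binomial (Clopper-Pearson) intervals of these shares had half-widths of at most 0.0140 percentage points, and they cover counting error only, since reads without molecular identifiers are not independent molecules. Car8 was the top row in KI/+ 2, KI/KI 2 and KI/KI 3 and ranked 2 or 3 in the other 6 libraries, Calb1 ranked 5 to 8 and Itpr1 12 to 27. These ranks depended in part on other rows, and the replicate 1 libraries of the 3 genotypes stood apart from the rest as a set. The chi-square per degree of freedom of their counts was 1.47 to 2.64 among themselves and 8.07 to 13.01 against the other 6 libraries, which differed from each other by 1.29 to 7.87. Filip1l held 3.07% to 3.68% of the counts in the replicate 1 libraries of all genotypes and 0.574% to 0.986% in the other 6, and Dsg3 held from 0.00150% to 1.36%.

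Per kilobase of exon, a scale that allows for gene length, the order of the levels was Car8, Calb1, Itpr1 in all 9 libraries. In WT the levels were 2121 ± 232 CPM per kilobase for Car8, 1088 ± 97.1 for Calb1 and 142 ± 4.83 for Itpr1 (SD, n = 3). Ranks on this scale were taken among genes that averaged at least 10 counts per library and had an exonic length in GENCODE vM21. Car8 ranked 2 or 3, Calb1 7 to 12 and Itpr1 263 to 429. The length of Itpr1 thus moved it far down the list while Car8 and Calb1 stayed near the top. The lowest Car8 library lay above the highest Calb1 library on this scale, and the lowest Calb1 library above the highest Itpr1 library. The Itpr1 values hold for the row as deposited, with the limit on its reads given above. The lengths were all exonic bases of a gene in GENCODE vM21, which can exceed the transcript in use. Whether they match the annotation used for counting was not tested.

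The mean Car8 level was higher in both mutant genotypes than in WT, but the libraries overlapped and Car8 was called in no comparison. The 3 WT libraries had 9206, 7640 and 7673 CPM, the KI/+ libraries 9199, 9126 and 9946, and the KI/KI libraries 10300.5, 8877 and 10037. WT 1, of the replicate 1 set, was higher than the other WT libraries and fell within the mutant range, above KI/+ 1, KI/+ 2 and KI/KI 2, so that WT overlapped with both mutant genotypes. The WT mean was 8173 ± 895, that of KI/+ 9424 ± 454 and that of KI/KI 9738 ± 757 (SD, n = 3).

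**Figure D1:**
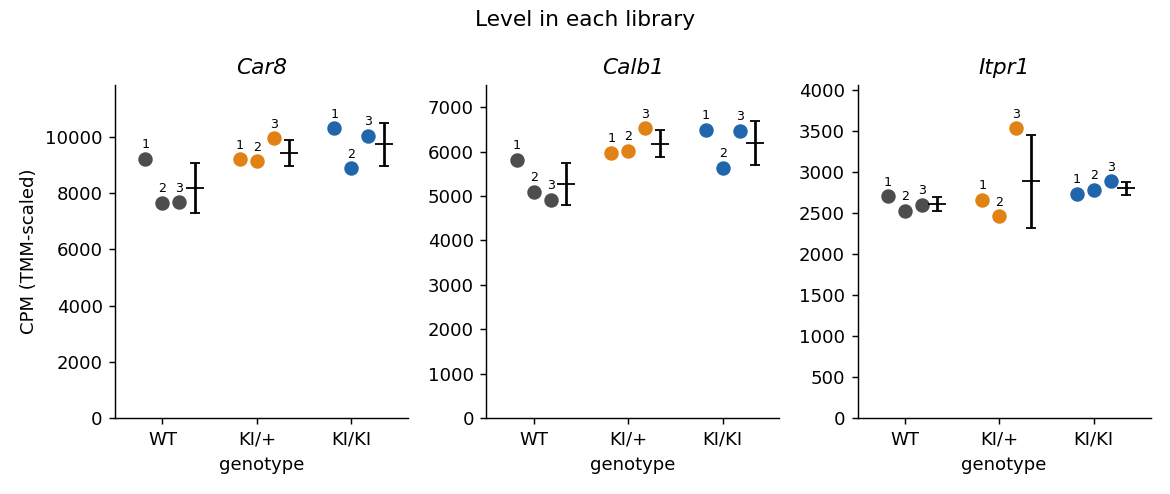
Level of Car8, Calb1 and Itpr1 in each library, in TMM-scaled CPM on a vertical axis from 0; points are libraries with their replicate number, and the bars to the right of each genotype are the mean ± SD (n = 3). WT 1 lies above WT 2 and WT 3 for all 3 genes, and KI/+ 3 stands alone at 3533 CPM for Itpr1.

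Between KI/KI and WT the difference in Car8 was 0.25 on the log2 scale (SE 0.0715), a 1.19-fold higher level with a 95% interval of 0.10 to 0.40. Its edgeR FDR was 0.174 (unadjusted p = 0.00244), which passed the FDR limit, but the fold-change of 1.3 was not reached and Car8 was not a DEG. The FDR rested on single libraries: it was 0.610 without WT 2, 0.594 without WT 3, 0.367 without KI/KI 1 and 0.577 without KI/KI 3, and 0.00699 without WT 1. The libraries of replicates 2 and 3 alone gave a difference of 0.30 (edgeR FDR = 0.0272), and a term for the replicate 1 set gave 0.26 (edgeR FDR = 0.0462). Between same-numbered libraries KI/KI lay above WT by 0.16, 0.22 and 0.39 on the log2 scale. Among the 6 libraries whose label starts with L1, 2 of each genotype, the difference was 0.19 with an edgeR FDR of 0.972.

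Calb1 followed a similar order of libraries. WT had 5805, 5092 and 4917 CPM, KI/+ had 5976, 6024 and 6522, and KI/KI had 6484, 5632 and 6462, with means of 5271 ± 470, 6174 ± 302 and 6193 ± 486 (SD, n = 3). All 3 KI/+ libraries lay above all WT libraries, whereas KI/KI 2 fell below WT 1 and left KI/KI and WT overlapping. The difference between KI/KI and WT was 0.23 (SE 0.0694), or 1.17-fold, with a 95% interval of 0.09 to 0.38 and an edgeR FDR of 0.197. That value sat just under the FDR limit and moved across it with leaving out WT 2 (0.611), WT 3 (0.670), KI/+ 2 (0.230), KI/KI 1 (0.382) or KI/KI 3 (0.659), and it was 0.0237 without WT 1. In the libraries of replicates 2 and 3 alone the difference was 0.27 (edgeR FDR = 0.0638), with a term for the replicate 1 set 0.23 (edgeR FDR = 0.0728), and between same-numbered libraries it was 0.16, 0.15 and 0.39.

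Itpr1, the channel itself, showed the smallest difference of the 3 genes in this comparison. WT had 2704, 2528 and 2599 CPM, KI/KI had 2738, 2779 and 2887, and KI/+ had 2666, 2460 and 3533. The KI/KI libraries all lay above the WT libraries by a narrow margin, while KI/+ held both the lowest and the highest library of the series. The WT mean was 2610 ± 88.5, that of KI/+ 2886 ± 569 and that of KI/KI 2801 ± 77.2 (SD, n = 3). The fitted difference between KI/KI and WT was 0.10 (SE 0.0940, 95% interval -0.10 to 0.30, edgeR FDR = 0.781), and at this interval neither a lower level nor a rise of about the size seen in Car8 could be set aside.

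In all, none of the 3 genes was a DEG between KI/KI and WT, where 1.33% of the tested genes were (144 of 10842 by edgeR). That background itself moved from 21 genes without WT 2 to 327 without WT 1, with 27 without WT 3, 24 without KI/KI 3 and 222 without KI/+ 3, and DESeq2 called 29 genes on all libraries and 34 on the 6 compared. With the fold-change limit dropped, Car8 and Calb1 were among the 1.89% of genes with an FDR under 0.2 (205 of 10842). An unadjusted edgeR p under 0.05 was reached by 1085 genes, Car8 and Calb1 among them. Itpr1 was the only member whose KI/KI libraries lay entirely above WT, as 7.81% of all tested genes did. The fitted differences stood at percentile 87.8 of all tested genes for Car8, 86.3 for Calb1 and 69.5 for Itpr1, and the median over all genes was 0.00619.

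**Figure D2:**
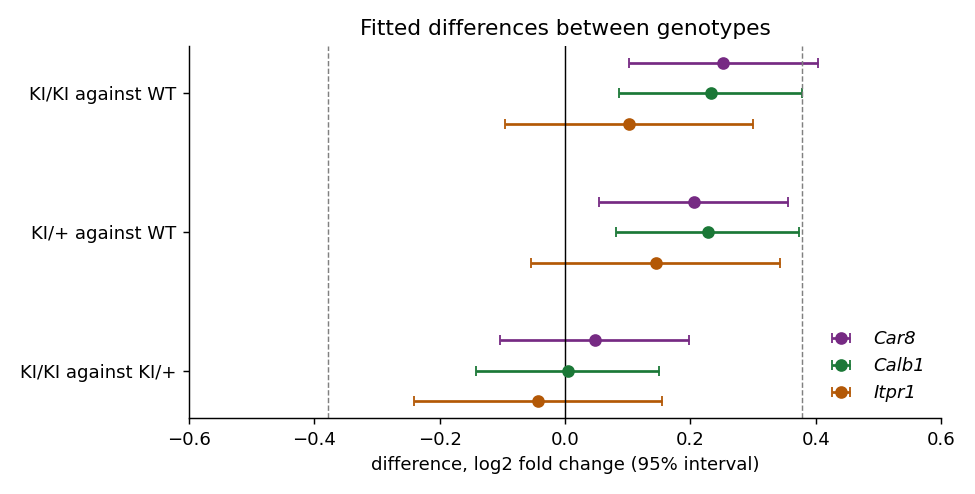
Fitted log2 fold changes of Car8, Calb1 and Itpr1 in the 3 comparisons of genotypes, with 95% intervals from edgeR (horizontal axis, log2 scale; dashed lines mark a fold-change of 1.3 in either direction). The intervals of Car8 and Calb1 lie above 0 against WT in both mutant genotypes, and every interval between KI/KI and KI/+ spans 0.

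With a single mutant allele the picture for Car8 and Calb1 was close to that with 2. Between KI/+ and WT the difference was 0.21 for Car8 (SE 0.0715), 0.23 for Calb1 (SE 0.0694) and 0.14 for Itpr1 (SE 0.0941). After adjustment over all genes the edgeR FDR was 0.998 for each of them, so no change passed the test. No gene at all was a DEG in this comparison by edgeR (0% of 10842), by DESeq2 on all libraries or by limma-voom, and 1 was by DESeq2 on the 6 libraries compared. By edgeR there were 33 without WT 1, 59 in the libraries of replicates 2 and 3 alone and 38 with no filter on low counts, none of them a member. An unadjusted edgeR p under 0.05 was reached by 459 genes, Car8 and Calb1 among them. Calb1 was the only member whose KI/+ libraries lay entirely above WT, as 4.7% of all genes did. Leaving out WT 1 brought the edgeR FDR to 0.0785 for Car8 and 0.0980 for Calb1, the libraries of replicates 2 and 3 alone gave 0.0542 and 0.0636, and leaving out KI/+ 3 turned the Itpr1 difference to -0.03. This comparison and that of KI/KI share the WT libraries, so a high or low WT library moves both.

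Between 1 and 2 mutant alleles no difference in the 3 genes passed the test. Between KI/KI and KI/+ the difference was 0.05 for Car8 (95% interval -0.10 to 0.20), 0.00437 for Calb1 (-0.14 to 0.15) and -0.04 for Itpr1 (-0.24 to 0.16), with edgeR FDRs of 0.893, 0.994 and 0.932. In the libraries of replicates 2 and 3 alone the differences of Car8 and Calb1 were -0.01 and -0.05. Here 0.387% of all genes were DEGs, and no member had KI/KI libraries entirely above KI/+, as 7.17% of all genes did. A fitted slope over 0, 1 and 2 alleles gave changes from 0 to 2 alleles of 0.25 for Car8 (edgeR FDR = 0.230), 0.23 for Calb1 (0.300) and 0.10 for Itpr1 (0.793), and none of them was called, against 1.18% of all genes.

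The steadiest measurement was the ratio of Car8 to Calb1 counts within a library, which needs no scaling between libraries. It was 1.59, 1.50 and 1.56 in WT, 1.54, 1.51 and 1.52 in KI/+, and 1.59, 1.58 and 1.55 in KI/KI. Over the 9 libraries its coefficient of variation was 2.04%, where the counting error of a library alone was 0.803% to 1.2%. Among the 4950 pairs that can be formed from the 100 genes with the most counts, only 2 pairs had a smaller SD of the log2 ratio (0.0295 for Car8 and Calb1, against a median of 0.145). The choice of these 100 genes was made after the values were seen.

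**Figure D3:**
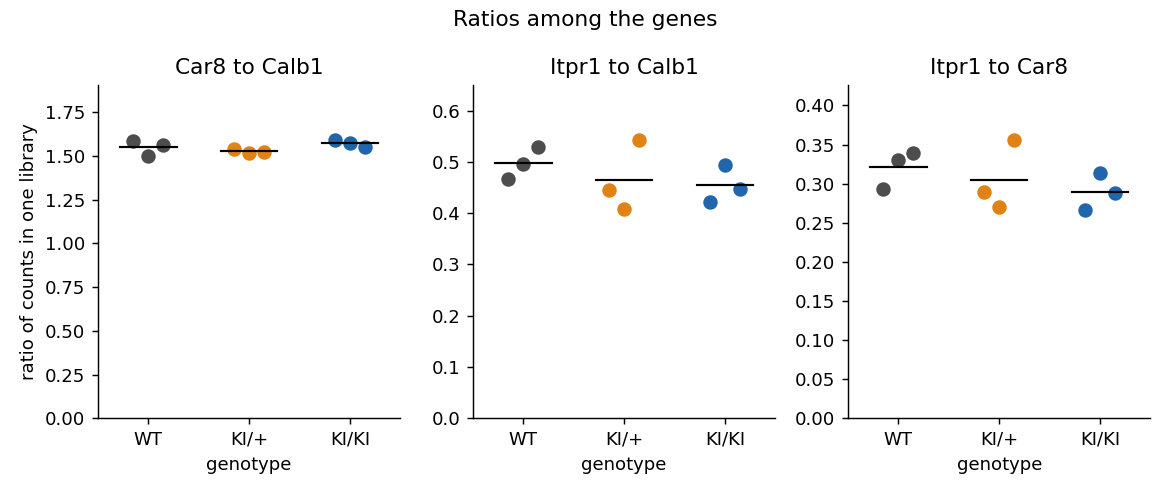
Ratios of raw counts within each library (vertical axes from 0), by genotype; points are libraries and lines are genotype means. The Car8 to Calb1 ratio stays between 1.50 and 1.59 in all 9 libraries, while both Itpr1 ratios spread over a wider range in every genotype.

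The ratios that involve Itpr1 were looser. Itpr1 to Calb1 was 0.466, 0.496 and 0.529 in WT, 0.446, 0.408 and 0.542 in KI/+, and 0.422, 0.493 and 0.447 in KI/KI, a coefficient of variation of 9.75%. Itpr1 to Car8 ran from 0.266 in KI/KI 1 to 0.355 in KI/+ 3, with a coefficient of variation of 10.3% and a mean of 0.321 for WT, 0.305 for KI/+ and 0.289 for KI/KI. Their SDs on the log2 scale, 0.140 and 0.147, were close to the median of the 4950 pairs. KI/+ 3 held the highest Itpr1 ratio to both partners.

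None of the 9 comparisons of a ratio between genotypes passed an exact two-sided permutation test, and with 3 libraries against 3 the smallest p possible is 0.1. That smallest p was reached by Car8 to Calb1 between KI/KI and KI/+, where all 3 KI/KI ratios lay above the KI/+ ratios by a mean of 0.04 on the log2 scale (exact permutation p = 0.1, adjusted over the 9 tests 0.6). Between KI/KI and WT the log2 ratio of Car8 to Calb1 differed by 0.02 (exact permutation p = 0.6). For KI/KI minus WT, Itpr1 to Calb1 gave a log2 difference of -0.13 and Itpr1 to Car8 -0.15, both with an exact permutation p of 0.2 and an adjusted p of 0.6.

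Across the 9 libraries Car8 and Calb1 moved together. On log2 CPM, Pearson's r was 0.982 (exact permutation p = 0.000185, adjusted over 3 pairs 0.000554) and Spearman's rho 0.867 (exact permutation p = 0.00451, adjusted 0.0135). Without WT 2 and WT 3, the libraries farthest from the median of Car8, r was 0.946 (exact permutation p = 0.00615, n = 7) and rho 0.750 (exact permutation p = 0.0663). Within the 6 libraries labelled L1 it was 0.977 (exact permutation p = 0.00833) with a rho of 0.771 (exact permutation p = 0.103). In the 6 libraries of replicates 2 and 3 it was 0.987 (exact permutation p = 0.00556), with a rho of 0.886 (exact permutation p = 0.0333), and between deviations from the genotype means it was 0.977. Levels scaled to the same library share the error of that scaling, but the ratio of raw counts above does not use it.

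**Figure D4:**
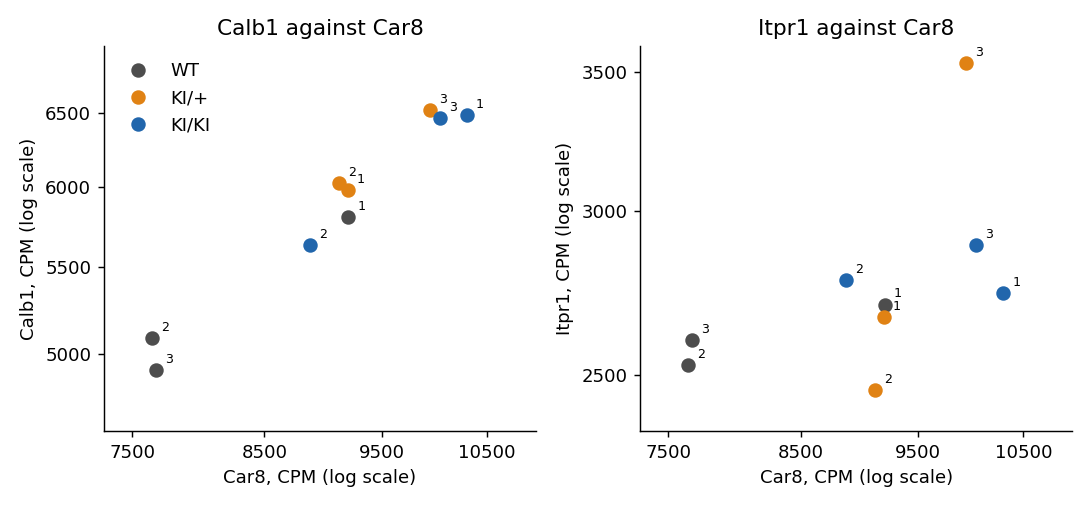
Calb1 (left) and Itpr1 (right) against Car8 in the 9 libraries, in TMM-scaled CPM on log2-spaced axes that do not start at 0; colours are genotypes and numbers are replicates. Calb1 rises with Car8 over all libraries (r = 0.982), while Itpr1 scatters, with KI/+ 3 above and KI/+ 2 below the rest.

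Itpr1 was less closely tied to its partners. Its r with Calb1 was 0.564 (exact permutation p = 0.112, adjusted 0.135) and with Car8 0.546 (exact permutation p = 0.135, adjusted 0.135), with rho of 0.567 and 0.650. Without KI/+ 2 and KI/+ 3, the farthest from the Itpr1 median, r was 0.795 with Calb1 and 0.822 with Car8 (exact permutation p = 0.0319 and 0.0232, n = 7), and rho was 0.643 and 0.714 (exact permutation p = 0.139 and 0.0881). These values remained below those of Car8 with Calb1. Within the libraries labelled L1 the values were 0.302 and 0.481 (exact permutation p = 0.565 and 0.378, n = 6).

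A search over all tested genes for the levels most like each member, by Pearson's r of log2 CPM over the 9 libraries and as a description only, returned Calb1 as the gene most like Car8 and Car8 as the gene most like Calb1. After Calb1, the list for Car8 held Ust (r = 0.968), a sulfotransferase of glycosaminoglycans, Slc50a1 (0.960), a sugar transporter, the predicted gene Gm11703 (0.958) and Hsf1 (0.947), the heat shock transcription factor. After Car8, the list for Calb1 held AC154912.4 (0.954), Ust (0.953), Gm11703 (0.952) and Tubgcp2 (0.949), a component of the gamma-tubulin complex. Itpr1 stood only at rank 1074 for Car8 and rank 935 for Calb1. Its own list held Cntn2 (0.969), a contactin of axons, an identifier without a symbol in vM21 (0.940), Gabbr2 (0.936), a subunit of the GABA-B receptor, Erbb2 (0.924) and Tfcp2 (0.921).

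Within genotypes the 3 genes varied less than the median tested gene. Genes with few counts vary more through counting error alone, and the 3 genes were among the most counted. No comparison with genes of similar counts was made. The SD of log2 CPM around the genotype means was 0.118 for Car8, 0.107 for Calb1 and 0.162 for Itpr1, against a median of 0.198 over all tested genes. Itpr1 owed most of its spread to KI/+, where the coefficient of variation of CPM was 19.7%, against 3.39% in WT and 2.76% in KI/KI. For Car8 the coefficient was largest in WT (10.95%), through WT 1.

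The pathway around the 3 genes was described with 66 further genes in 7 lists, of which 42 passed the count filter. None of them was a DEG in any comparison by edgeR or by DESeq2. Over all tested genes the edgeR share was 1.33% between KI/KI and WT, 0.387% between KI/KI and KI/+ and 0% between KI/+ and WT. At shares this small, none called among 42 genes is near the background. Between KI/KI and WT 4 of the 42 had an unadjusted edgeR p under 0.05, beside 1085 of all 10842 tested genes. The lowest FDR of the 42 in that comparison was 0.246. In that comparison 28 lay above and 14 below 0, with a median difference of 0.05 beside 0.00619 over all genes. Between KI/+ and WT 20 lay above and 22 below 0, with a median of -0.000305. Of the 9 libraries left out in turn, only WT 1 moved the count: without it Cacnb4, a calcium channel beta subunit, was called between KI/KI and WT, as it also was by limma-voom and in the libraries of replicates 2 and 3 alone. Cacnb4 was a weakly counted gene, at 4.68 ± 4.06 CPM in WT and 8.65 ± 2.67 in KI/KI (SD, n = 3). In the fit to all libraries its difference was 0.81 (95% interval -0.07 to 1.69, edgeR FDR = 0.551).

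**Figure D5:**
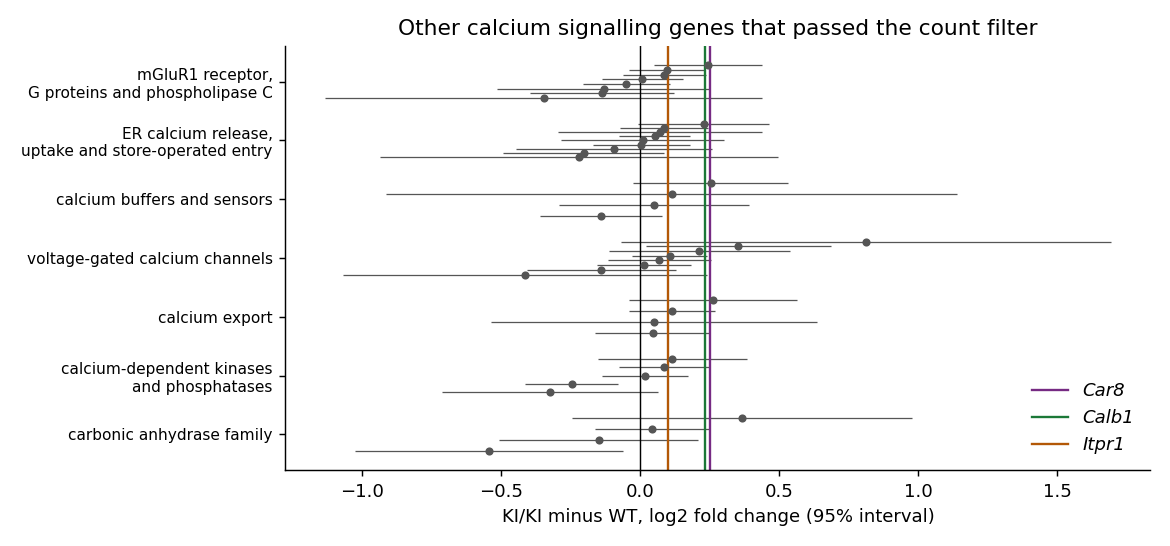
Fitted log2 fold changes between KI/KI and WT, with 95% intervals, of the 42 other calcium signalling genes that passed the count filter, in 7 lists (horizontal axis, log2 scale); coloured lines mark Car8, Calb1 and Itpr1. Most points lie between -0.5 and 0.5, and no list has all of its points above the Car8 line.

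Upstream of the channel, 8 of 13 genes of the mGluR1 receptor, its G proteins and phospholipase C were tested, with 4 above and 4 below 0 between KI/KI and WT. The most abundant was Itpkb, a kinase that phosphorylates inositol trisphosphate, at 1483 ± 69.3 CPM in WT and 1585 ± 34.5 in KI/KI (difference 0.10, edgeR FDR = 0.676). Gna11, a Gq-class alpha subunit, differed by 0.00827 and Plcb3, a phospholipase C, by -0.05. Of the genes for calcium release, uptake and store-operated entry at the ER, 9 of 11 were tested and 6 lay above 0. The ryanodine receptor genes Ryr1, Ryr2 and Ryr3, which also encode calcium release channels of the ER, differed by 0.05, 0.09 and 0.00431.

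Among calcium buffers and sensors, the group of Calb1, only 4 of 9 genes were tested and 3 lay above 0. Ncald, a neuronal calcium sensor, had 865 ± 78.4 CPM in WT and 787 ± 100 in KI/KI, with a difference of -0.14 (edgeR FDR = 0.716). Calm2, a calmodulin gene, differed by 0.25 (edgeR FDR = 0.552) and Calb2, which encodes calretinin, by 0.05. Calm2 thus had a point estimate as large as that of Car8, with a wider 95% interval of -0.02 to 0.53. In the carbonic anhydrase family, to which Car8 belongs by sequence, 4 of 9 were tested and 2 lay above 0: Car4 differed by 0.04, Car11 by -0.15 and Car10 by 0.37. Car7 had the largest difference and the lowest p of these 4 genes, at -0.54 (edgeR FDR = 0.425). Car8, which is not counted among the 4, had a lower edgeR FDR of 0.174.

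All 8 voltage-gated calcium channel genes were tested and 6 lay above 0. Cacna1g, a T-type channel, ranged over 381 to 403 CPM in WT libraries and 411 to 432 in those of KI/KI (difference 0.11, edgeR FDR = 0.634). The KI/KI libraries lay entirely above WT in this way for 7.81% of all tested genes. Cacnb2 and Cacna1c differed by 0.01 and 0.07. Of the calcium export genes, 4 of 8 were tested and all 4 lay above 0, at 0.05 to 0.26. They included Atp2b2, a plasma membrane calcium pump, with a difference of 0.11, and the exchangers Slc24a2 and Slc24a3 with 0.05 and 0.26. Of the calcium-dependent kinases and phosphatases 5 of 8 were tested and 3 lay above 0. Ppp3cb, a catalytic subunit of calcineurin, had the lowest FDR of the 42 genes, with a mean of 290 ± 23.3 CPM for WT, 250.5 ± 17.7 for KI/+ and 245 ± 13.9 for KI/KI (difference between KI/KI and WT -0.25, edgeR FDR = 0.246), while Camk2b and Camkk2 differed by 0.02 and 0.09.

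Markers of other cells in the tissue were read beside these differences, since in bulk tissue fewer cells of a type and less RNA per cell cannot be told apart. The summed level of the 10 markers of deep nuclear and brainstem neurons ran from 2672 to 3714 CPM of the library total in WT, 2646 to 2744 in KI/+ and 2393 to 2564 in KI/KI, but that gap came from Vamp1, a vesicle protein of fast-firing neurons. Vamp1 was the only marker of any list that was called, at -0.61 between KI/KI and WT (edgeR FDR = 0.00837), and it had 2571 ± 473 CPM in WT and 1680 ± 88.6 in KI/KI (SD, n = 3). The other 9 markers summed to 722 to 797 in WT, 745 to 810 in KI/+ and 777 to 791 in KI/KI, and of the 5 tested 3 lay above 0, with a median difference of 0.03. Oligodendrocyte markers ran from 2228 to 2766 in WT, 1788 to 2616 in KI/+ and 1926 to 2590 in KI/KI. Granule cell markers ran from 711 to 815 in WT, 645 to 843 in KI/+ and 798 to 925 in KI/KI, and those of Bergmann glia and astrocytes from 855 to 982, 871 to 981 and 977 to 1102. Markers of molecular layer and Golgi interneurons ran from 386 to 425 in WT, 378 to 408 in KI/+ and 395 to 418 in KI/KI, and those of microglia from 28.3 to 31.3, 33.5 to 36.5 and 24.6 to 36.4. The Purkinje markers without the 3 genes described here ran from 83.9 to 88.5 in WT, 73.1 to 80.7 in KI/+ and 72.4 to 82.9 in KI/KI, below WT in both mutant genotypes while the means of Car8 and Calb1 lay above those of WT. The defining markers Slc1a6 and Ppp1r17 (Purkinje cells), Cbln3 (granule cells), Kit (interneurons), Gdf10 (Bergmann glia), C1qa (microglia) and Nefl (deep nuclei) were at 0 in every library. The part of these cell types in the Car8 and Calb1 differences was not tested.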

How the data were processed

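Gene-level raw counts were deposited by the authors as a table of 56953 versioned Ensembl identifiers in 9 libraries (stranded mRNA libraries of laser-captured tissue, total RNA), made with Rsubread, with GRCm38 and mm10 named in the submitters' processing notes. The annotation release, strand setting and treatment of reads with several matches are not given in the sources used here. Symbols, positions and exonic lengths came from GENCODE vM21, which holds 52029 of the identifiers. The study's own DEGs came from DESeq2. Here the counts were fitted in edgeR 4.0.16 (R 4.3.3) by quasi-likelihood with TMM factors and filterByExpr (minimum count 10), with all libraries in a single model of genotype, and p-values were adjusted over 10842 genes. Log2 CPM used a prior count of 2. Ratios of raw counts were compared by exact permutation and correlations by full enumeration. The scripts were tested on simulated counts. Replicates are separate mice per the labels. The lowest chi-square per degree of freedom of a pair of libraries was 1.29 (WT 2 with WT 3), above sampling noise alone, and all 9 libraries were counted as separate samples. Total counts of 1915339 to 4032357 per library limit the precision of weakly counted genes, while that of the 3 members is limited by the 3 libraries per genotype.

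The members and lists were chosen with earlier results of these data known. Genes were named by rule: the 3 members, Kcnd3, any called gene of a list and otherwise the 3 most abundant tested genes of each list, the 5 genes most like each member, and their neighbours in total counts. Marker genes at or near 0, Cacnb4 and Car7 were named after their values were seen. Alternatives were other normalizations (RLE, upper quartile, library totals), filters, DESeq2 1.42.0, limma-voom (limma 3.58.1), a replicate block, libraries labelled L1, thinned counts and leaving out each library. A term for the replicate 1 libraries and a fit without that set were added after seeing the data. No sequence is printed.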

Additional observations from a re-analysis of the deposited data

How the results depend on the processing

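Under the criteria for a DEG none of the 3 genes was called in any alternative. Between KI/KI and WT the differences of Car8, Calb1 and Itpr1 stayed above 0 in all 25 alternatives, from 0.19 to 0.35, 0.15 to 0.31 and 0.08 to 0.14. The FDR ran from 0.00154 to 0.972 for Car8 and from 0.0139 to 0.972 for Calb1 and was under 0.2 in 20 and 15 of the 25. The difference of Calb1 between KI/KI and KI/+ changed sign with RLE normalization (-0.00167) and DESeq2 (-0.00132) and ran from -0.0308 to 0.0678 with each library left out. In the libraries of replicates 2 and 3 only, chosen after seeing the data, it was -0.0546 and that of Car8 -0.0136. That of Itpr1 changed sign with limma-voom (0.0306) and in the libraries labelled L1 (0.104), and ran from -0.146 to 0.120 with each library left out. Itpr1 between KI/+ and WT was -0.0270 in the libraries labelled L1 and ran from -0.0257 to 0.249 with each library left out. The cause of these sign changes was not tested.

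The count of other calcium genes called between KI/KI and WT was 1 by limma-voom, 1 in the libraries of replicates 2 and 3 only and 0 to 1 with each library left out, likewise 0 to 1 for the slope over alleles, with 1 in the libraries of replicates 2 and 3 only. Without the 2 libraries farthest from the median, the correlation of Itpr1 was 0.795 with Calb1 and 0.822 with Car8. Library totals without Filip1l and Dsg3, chosen after seeing the data, gave 0.25 for Car8 and 0.23 for Calb1 between KI/KI and WT.

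The labels do not say that a replicate number marks a shared litter or batch. The correlation of deviations between same-numbered libraries was 0.2004 to 0.24 among the replicate 1 libraries and -0.0179 to 0.156 among the others, so the numbers were not taken to pair all libraries. With a replicate block the differences between KI/KI and WT were 0.25 for Car8 (FDR 0.0364), 0.23 for Calb1 (0.0674) and 0.10 for Itpr1 (0.638), and the number of DEGs over all genes was 285 in place of 144, with 164 in place of 42 between KI/KI and KI/+ and 258 in place of 128 for the slope. Depth limits the weakly counted list genes, not the 3 members.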
